A study of Mus musculus with 9 samples.

Results

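CpG methylation was examined at 10 genes of blood vessels and of the tight junction: Cldn5, Ocln, Tjp1, Pecam1, Cdh5, Flt1, Kdr, Tek, Slc2a1 and Vwf. The members were listed by name, and all 10 were found among the 49554 genes of the RefSeq table for assembly GRCm38.p6. The data are whole-genome bisulfite libraries from frozen tissue punches of the nucleus accumbens, a reward region of the ventral striatum, of male C57BL/6J mice aged 8 weeks. The labels put 5 libraries in a Control group (Control 2, 3, 4, 5 and 8) and 4 in a Susceptible group (Susceptible 2, 3, 6 and 7), with 1 library per title and nothing that says whether mice were pooled. Bisulfite leaves methylated cytosines as C and converts the others, so the methylation level is the share of calls read as C. Hydroxymethylated cytosines also stay C and were not told apart. The treatment text, 10 daily defeats by an aggressive CD1 retired breeder, stands on the records of both groups. The sources used here do not give the handling of the Control mice or the score that defined susceptibility.

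In the brain, endothelial cells line the capillaries and seal the gaps between them with tight junctions, which together form much of the blood-brain barrier. Claudins and occludin span the membrane at the junction, and zonula occludens proteins anchor them to actin. Cldn5 is the main claudin of brain endothelium, and its level in the nucleus accumbens has been tied to social defeat. CpGs at active or poised CpG-rich promoters are usually unmethylated, and gene bodies are usually methylated. Endothelial cells are a minority of such a punch, so most calls at these genes come from other cells. In bulk tissue, a changed share of a cell type and a changed level within its cells cannot be told apart.

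The promoter letters of 4 members show the range of CpG content behind the measurements. They are 300 bases each, 250 before the RefSeq start and 50 after it, 5′ to 3′ on the gene's strand, with every CpG in capitals, from the RefSeq promoter table of GRCm38.p6. Cldn5 lies at chr16:18776597-18776896 on the plus strand and has 12 CpGs. Flt1 lies at chr5:147725962-147726261 on the minus strand and has 29 CpGs. Kdr lies at chr5:75978406-75978705 on the minus strand and has 19 CpGs, and it was added to those shown after its values were seen. Tek lies at chr4:94739039-94739338 on the plus strand and has 3 CpGs.
Cldn5: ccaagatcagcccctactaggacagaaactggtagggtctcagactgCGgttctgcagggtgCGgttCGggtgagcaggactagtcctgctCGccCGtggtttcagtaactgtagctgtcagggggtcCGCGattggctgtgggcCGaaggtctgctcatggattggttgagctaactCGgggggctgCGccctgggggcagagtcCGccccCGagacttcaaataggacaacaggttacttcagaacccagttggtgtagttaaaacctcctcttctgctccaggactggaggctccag
Flt1: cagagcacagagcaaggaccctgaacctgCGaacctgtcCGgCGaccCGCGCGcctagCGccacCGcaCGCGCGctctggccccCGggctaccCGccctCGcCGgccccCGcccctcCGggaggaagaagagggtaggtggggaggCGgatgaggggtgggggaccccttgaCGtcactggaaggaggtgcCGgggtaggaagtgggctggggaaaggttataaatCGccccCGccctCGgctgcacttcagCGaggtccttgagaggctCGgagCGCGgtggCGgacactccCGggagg
Kdr: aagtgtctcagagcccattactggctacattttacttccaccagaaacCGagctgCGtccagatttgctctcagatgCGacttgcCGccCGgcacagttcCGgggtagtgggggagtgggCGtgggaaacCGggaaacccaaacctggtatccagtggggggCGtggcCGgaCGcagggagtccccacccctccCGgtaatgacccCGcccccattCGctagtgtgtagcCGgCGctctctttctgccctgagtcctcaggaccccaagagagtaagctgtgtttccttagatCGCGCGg
Tek: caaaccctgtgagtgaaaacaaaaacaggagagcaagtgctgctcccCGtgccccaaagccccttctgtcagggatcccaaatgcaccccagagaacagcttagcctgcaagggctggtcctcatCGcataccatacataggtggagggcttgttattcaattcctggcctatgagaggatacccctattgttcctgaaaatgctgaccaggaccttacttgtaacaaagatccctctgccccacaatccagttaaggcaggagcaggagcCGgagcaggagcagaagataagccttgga
Over all 32619 promoters of the table the median was 7 CpGs. Ocln had 17, Slc2a1 18 and Tjp1 31, and Pecam1, Cdh5 and Vwf were not matched there. The GC box, searched as GGGCGG on both strands, was found in 35.9% of all promoters of this length. It occurred 1 time in Cldn5 and Ocln, 2 times in Kdr, Tjp1 and Slc2a1, 3 times in Flt1 and 0 times in Tek. The E-box CACGTG, found in 7.2% of promoters, was in 0 of the 7 members' promoters.

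Facts of the libraries bear on what follows. The files list 13446563 to 22631489 cytosines per library with 313475624 to 570984634 calls, every listed cytosine has at least 10 calls, and each Susceptible library has more calls than each Control library. Over the start windows of the 10 members together, 16852 to 33546 calls were made per library, and over their bodies 189009 to 355130. The strands of a CpG disagreed most in Control 5 and Control 8, with a Pearson factor of 18.4 and 19.7 against 2.38 to 6.11 in the other libraries, where 1 is counting error alone. The factor was taken over 514600 to 1418976 CpGs per library, away from the members, that list both strands. Only CpGs of intermediate level over both strands together were used, so it does not speak for all CpGs. Susceptible 7 had the lowest level over all CpG calls, 74.6% against 75.7 to 77.1% elsewhere. Among the Susceptible libraries it was the lowest at 10 of 10 member starts and over 9 of 10 member bodies. Without it, the start difference of Cldn5 was −2.16 points and that of Kdr −2.59.

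No member passed the test at its start or over its body. As no label says that each library came from a separate mouse, p-values measure the spread between these libraries. The start window was 1 kb on each side of the RefSeq start, and for genes whose strand the RefSeq tables used here do not hold (Pecam1, Cdh5, Vwf) it was centred on the gene end with more CpGs. Of 42588 gene starts tested with a quasi-binomial model moderated across genes as in limma, 0 had a Benjamini-Hochberg adjusted p under 0.05 (0%), and limma on logit levels also called 0. An unadjusted p under 0.05 was reached by 1938 starts (4.55%) and by 1 of the 10 members, Kdr. The groups did not overlap at 1.71% of all starts and at 0 of the members' starts. Over whole genes, 0 of 39099 were called (0%), 1796 had an unadjusted p under 0.05 (4.59%), and 1 of the 10 members, again Kdr, was among them. The members' levels spanned nearly the whole scale at the starts, from 1.89% for Flt1 to 92.7% at the CpG-richer end of Pecam1 as means over all 9 libraries. Of the members, 5 had a start level under 20%, against 34.6% of all starts tested. The median difference, Susceptible minus Control, was −0.793 percentage points over the 10 starts and −0.0759 over all starts. Over bodies it was −0.407 for the members and −0.336 for all genes.

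**Figure D1:**
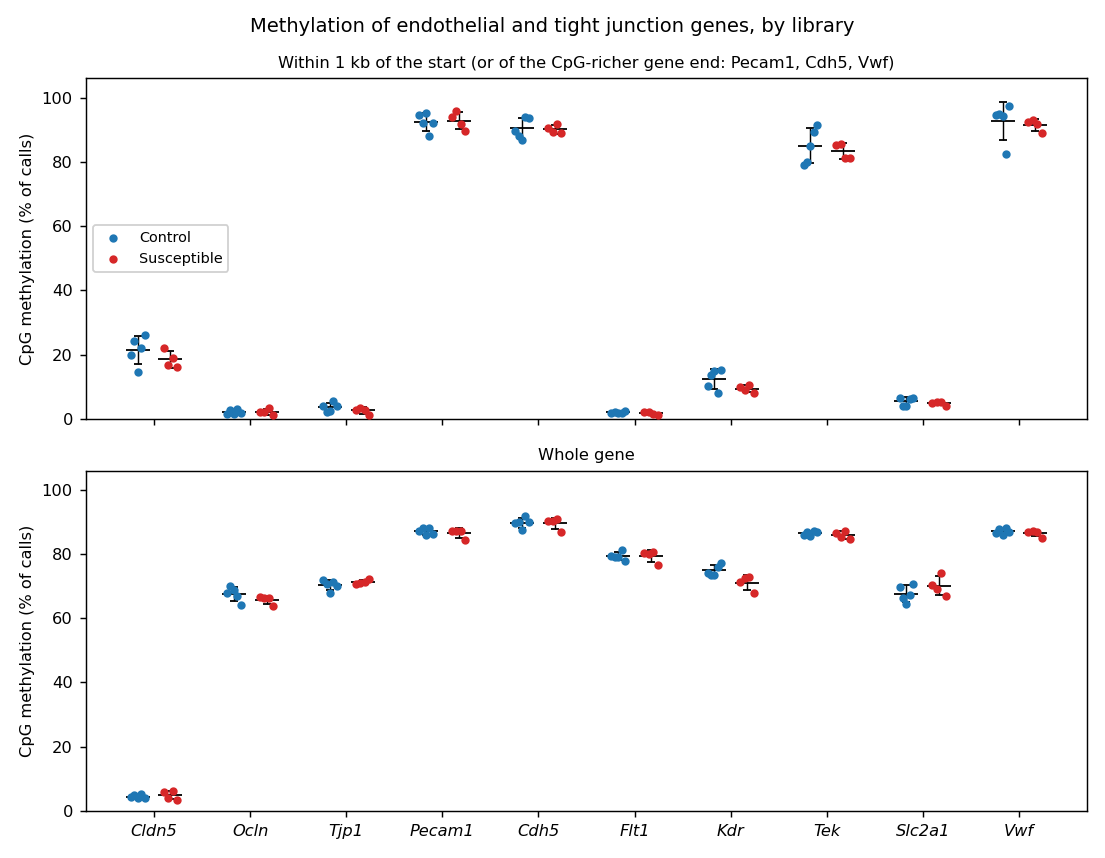
Methylation level (% of calls read as C) of the 10 genes. The upper panel is within 1 kb of the start, or of the CpG-richer gene end for Pecam1, Cdh5 and Vwf. The lower panel is over the whole gene. Points are libraries, horizontal marks are group means and bars are SD (n = 5 Control, n = 4 Susceptible). Levels in the upper panel fall into a low set of 6 genes at 1.19 to 26.1% and a high set of 4 genes at 79.1 to 97.3%. Of the high set, only Tek was read at a RefSeq start. The groups overlap except over the body of Kdr.

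In order of level at the RefSeq start, the 7 members that have one ran Flt1, Ocln, Tjp1, Slc2a1, Kdr, Cldn5 and Tek. Cdh5, Vwf and Pecam1 have no place in this order: their CpG-richer ends read 90.3, 92.2 and 92.7% and their other ends 82.4, 94.6 and 86.8%. The ranges over libraries of Flt1, Ocln and Tjp1 each overlapped that of the next gene in this order, as did those of Kdr and Cldn5. The range of Slc2a1 (3.84 to 6.56%) did not reach that of Kdr (7.97 to 15.3%), and that of Cldn5 (14.6 to 26.1%) did not reach that of Tek (79.1 to 91.5%).

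Cldn5, whose product seals the paracellular space between brain endothelial cells, is a single short gene of 1416 bp at chr16:18776847-18778262. Its start window read 19.9, 24.1, 14.6, 22.2 and 26.1% in Control 2, 3, 4, 5 and 8. In Susceptible 2, 3, 6 and 7 it read 22.1, 16.7, 18.9 and 16.2%. The lowest library and the highest were both Control, and the groups overlapped. The mean was 21.4% ± 4.43 (SD, n = 5) in Control, and at 18.5% ± 2.68 (SD, n = 4) the Susceptible mean lay −2.91 points away (exact permutation test, two-sided, p = 0.302; adjusted p = 0.989 in the moderated quasi-binomial model). The spread between libraries at this window was large for its depth of 2047 to 6771 calls: the dispersion, 1 under pure counting error, was 45.0, against a median of 8.27 over all starts.

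The 2 sides of the Cldn5 start were unlike each other. The 1 kb before the start read 60.5% ± 7.89 in Control and 59.2% ± 5.18 in Susceptible libraries. On the other side, the 1 kb after it read 3.50% ± 0.600 and 3.47% ± 1.26. Neither side differed beyond the spread between libraries (exact permutation p = 0.778 before and 0.929 after). The level of the whole window is thus an average over a methylated upstream side with 31 CpGs and an unmethylated gene with 76, and it moves with the share of calls from each side. With each CpG weighted equally the difference was −0.624 points, and with 0.5 kb on each side it was −6.79 points (unadjusted p = 0.0494 in the quasi-binomial model). Without Control 4, the lowest library, the 1-kb difference was −4.60 points (unadjusted p = 0.0238 in the same model), and without Control 8, the highest, it was −1.73. The body, which lies almost whole in the unmethylated side, read 4.46% ± 0.509 and 4.95% ± 1.35, at the percentile 1.79 of the levels of all genes tested.

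The letters of the Cldn5 promoter cover the slope between these sides. All 12 CpGs were listed in at least 8 libraries, and 10 in all 9. Over the 10, the mean level per CpG ran from 5.35 to 67.3% with a median of 38.8%. The 3 CpGs farthest upstream, at bases −203, −188 and −183 from the start, averaged 64.9, 63.3 and 67.3%. The CpG at −120, directly beside that at −122 in the run CGCG, read 5.35% against 39.9% for its neighbour. It was at 0% in Control 4, 5 and 8 and Susceptible 7, and its highest value was 23.4% in Control 2. The CpG at −105 again read 36.6%, and that at −72 read 8.76%. Nearest the start, the CpGs at −44 and −38 read 6.90 to 100% and 7.14 to 96.9% over the 8 libraries that list them. The promoter as a whole read 51.0, 55, 39.0, 38.8 and 54.2% in the Control libraries and 33.8, 41.7, 46.7 and 43.6% in the Susceptible ones. The groups overlapped, with means of 47.6% ± 8.06 and 41.5% ± 5.50 (exact permutation p = 0.238). The 10 CpGs listed in all 9 libraries rest on 12 to 104 calls each per library, and the source of their spread was not tested.

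**Figure D2:**
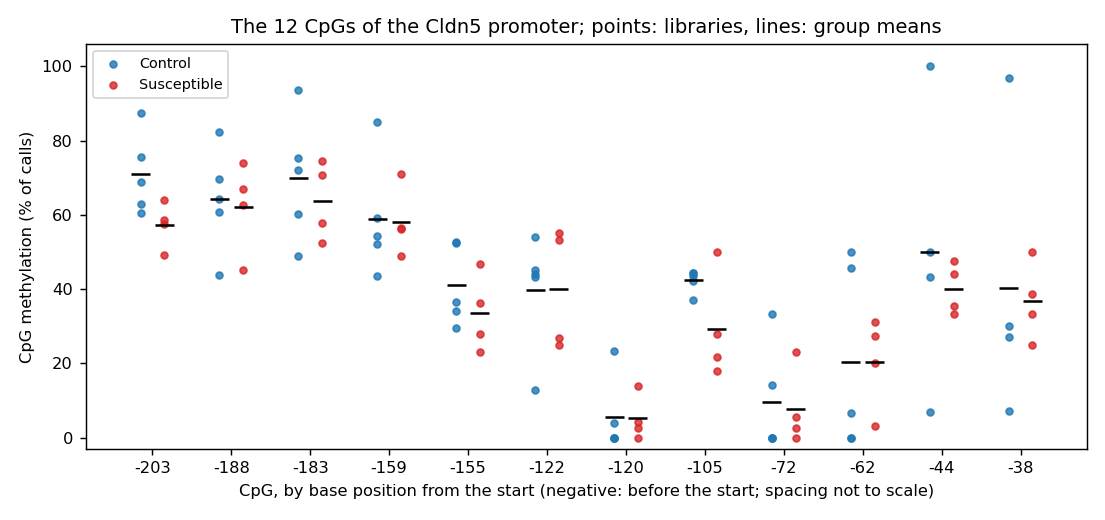
Methylation level of each of the 12 CpGs in the Cldn5 promoter (y axis, % of calls) by position relative to the start (x axis, bases, not to scale). Points are libraries and lines are group means. Among the CpGs listed in all 9 libraries, mean levels ran from 67.3% at −183 to 5.35% at −120 without a steady fall, and −105 read 36.6%. The groups overlap at each CpG, also at −203 and −105, where the means differ by −13.6 and −13.0 points.

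Ocln encodes occludin, a membrane-spanning protein of the tight junction, and lies at chr13:100496504-100552718 on the minus strand. Its start window was unmethylated, at 1.53, 2.68, 1.64, 3.20 and 1.72% in Control and 2.16, 2.10, 3.31 and 1.20% in Susceptible libraries. The groups overlapped throughout (2.15% ± 0.744 and 2.19% ± 0.867, exact permutation p = 0.913), and the difference of 0.0396 points turned negative without Control 2, 4 or 8 or Susceptible 6. Its body read 67.5% ± 2.22 and 65.8% ± 1.26, a difference of −1.74 points (exact permutation p = 0.190). Without Control 8 that was −2.59 points (unadjusted p = 0.0167 in the quasi-binomial model), and with each CpG weighted equally it was 0.153.

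Tjp1, which encodes the scaffold protein ZO-1, spans 231686 bp at chr7:65296165-65527850 on the minus strand, and its RefSeq start at 65371244 lies inside that span. The start window read 3.95, 2.02, 2.45, 5.62 and 3.89% in Control and 2.86, 3.48, 2.82 and 1.19% in Susceptible libraries. The highest value was Control 5, the lowest Susceptible 7, and the others overlapped (3.59% ± 1.42 and 2.59% ± 0.978, exact permutation p = 0.278). The difference became −2.64 with 2 kb on each side (unadjusted p = 0.0168 in the quasi-binomial model), −0.334 with 0.5 kb and 0.0707 over CpGs that all 9 libraries list. The 1 kb before the start read 12.6% ± 7.99 and 8.54% ± 3.46, above the 1 kb after it at 1.27% ± 0.476 and 1.21% ± 0.349. A second unmethylated stretch lay at the far end of the gene model, far before that start in the direction of transcription: the 1-kb tile from 65527001 held 119 CpGs and averaged 1.54%. The body read 70.3% ± 1.62 and 71.3% ± 0.788, a difference of 0.935 points (exact permutation p = 0.365) that became 0.289 without Control 4 and 0.575 without Susceptible 7.

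Pecam1 and Cdh5 encode adhesion molecules of the endothelial cell border, CD31 and VE-cadherin, and the ends and the mean over the body of both were highly methylated. Pecam1 (chr11:106654213-106715281) read 92.5% ± 2.82 in Control and 92.9% ± 2.67 in Susceptible libraries at its CpG-richer end, and 88.4% ± 9.26 and 84.8% ± 6.01 at the other end. Cdh5 (chr8:104101613-104144504) read 90.5% ± 3.27 and 90.1% ± 1.26 at its CpG-richer end and 84.7% ± 7.22 and 79.5% ± 5.26 at the other. None of these 4 windows differed beyond the spread between libraries (exact permutation p = 0.849, 0.508, 0.817 and 0.270). Which end holds the start of transcription was not used here. The small differences at the CpG-richer ends changed sign without Control 5, Susceptible 2 or Susceptible 3 for Pecam1 and without Control 5, Control 8 or Susceptible 7 for Cdh5.

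The bodies of both adhesion genes did not differ between groups beyond the spread of their libraries. Pecam1 read 87.1% ± 1.09 and 86.5% ± 1.45 (exact permutation p = 0.563), and Cdh5 read 89.8% ± 1.57 and 89.5% ± 1.82 (p = 0.849 by the same exact test). In each the lowest Susceptible library was Susceptible 7, at 84.4 and 86.8%, and without it the differences were 0.153 and 0.660 points. No tested 1-kb tile in or within 5 kb of either gene had a mean level under 20%. The lowest tile of Pecam1, from 106674001 inside the gene, averaged 35.5%, and the lowest of Cdh5, from 104098001 outside it, averaged 50.1%.

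Flt1 and Kdr encode VEGF receptors and Tek encodes the angiopoietin receptor TIE2, and their starts had very different CpG content and levels. Flt1, at chr5:147561604-147726438 on the minus strand, had the lowest start of the set. It read 1.91, 2.22, 1.68, 1.77 and 2.5% in Control and 2.13, 1.97, 1.54 and 1.30% in Susceptible libraries, which overlapped (exact permutation p = 0.270). The unmethylated stretch was long: of the 158 tested tiles at Flt1, 4 averaged under 20%, those from 147722001, 147724001, 147725001 and 147726001. Its body read 79.3% ± 1.23 and 79.4% ± 1.85, and the difference of 0.0890 points changed sign without Control 8 or any 1 of Susceptible 2, 3 and 6.

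Kdr, the main signalling receptor for VEGF-A on endothelium, lies at chr5:75932827-75979072 on the minus strand. Its start window read 10.2, 13.6, 14.9, 8.06 and 15.3% in Control and 9.94, 9.02, 10.5 and 7.97% in Susceptible libraries. The 3 highest values were Control, and Control 2 and Control 5 lay within the Susceptible range. The means were 12.4% ± 3.15 and 9.35% ± 1.10, a difference of −3.05 points (exact permutation p = 0.119; unadjusted p = 0.0189 and adjusted p = 0.989 in the quasi-binomial model). Its absolute difference stood at the percentile 75.8 among all starts tested. With 1 library left out the difference ran from −2.33 to −4.13 points, and the unadjusted p in the same model from 0.00289 without Control 5 to 0.0507 without Control 3, 0.0508 without Susceptible 7 and 0.0626 without Control 4. Limma gave an unadjusted p of 0.162. With a minimum of 20 calls per cytosine the difference was −1.54 points (unadjusted p = 0.178 in that model), with 0.5 kb on each side it was −1.32 (unadjusted p = 0.109), and over CpGs that all 9 libraries list it was −2.93 (unadjusted p = 0.138). With 2 kb on each side it was −4.78 (unadjusted p = 0.0276), and without Control 5 and Control 8, whose paired strands of a CpG disagreed most, −3.54 (unadjusted p = 0.00789). The difference was not seen in the promoter letters shown, which read 0.624% ± 0.909 in Control and 2.21% ± 1.20 in Susceptible libraries (exact permutation p = 0.0635). Of the 19 CpGs there, 2 were listed in all 9 libraries, and Control 5 lists no others. The libraries are thus compared over different CpGs there, on 58 to 695 calls each. The means differed more at the edges of the unmethylated stretch: the 1 kb before the start read 22.5% ± 4.50 and 18.6% ± 4.22 (exact permutation p = 0.222), and the tile from 75977001, inside the gene, read 26.9% ± 5.94 and 20.5% ± 2.75 (exact permutation p = 0.0794).

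Over its whole body, Kdr was the member whose groups did not overlap, as were 1.56% of all gene bodies. Of all bodies with an unadjusted p under 0.05 in the quasi-binomial model, 1218 were lower in Susceptible libraries, as Kdr was, and 578 higher. The body of Kdr read 74.2, 73.3, 73.5, 76.0 and 77.3% in Control and 71.4, 72.4, 72.9 and 67.8% in Susceptible libraries. Every Control library was above every Susceptible one, with means of 74.9% ± 1.74 and 71.1% ± 2.32 and a difference of −3.76 points. The exact permutation p of 0.00794 is the smallest that 126 splits can give, and the adjusted p of the quasi-binomial model was 0.997 (unadjusted 0.0125). With 1 library left out the difference ran from −2.64 points (without Susceptible 7) to −4.36 (without Susceptible 6), with unadjusted p-values of 0.00820 to 0.0308 in that model. With a minimum of 20 calls it was −5.15 (unadjusted p = 0.0170), and without Control 5 and Control 8 −2.55 (unadjusted p = 0.0735). Of the body's calls, 16.0 to 18.5% came from the start window in Control and 18.7 to 21.1% in Susceptible libraries. The part of this share in the body difference was not tested, and how many other genes have such a share was not counted. Outside the start window the body read 88.5% ± 1.04 and 87.1% ± 2.0, a difference of −1.46 points with overlapping groups (exact permutation p = 0.206). Over the 240 CpGs of the body that all 9 libraries list, each weighted equally, the groups differed by −1.41 points (exact permutation p = 0.413).

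Tek, at chr4:94739086-94874976 on the plus strand, had a CpG-poor and methylated start. It read 79.1, 80.1, 84.9, 89.4 and 91.5% in Control and 85.3, 85.7, 81.3 and 81.2% in Susceptible libraries. The Susceptible values lay inside the Control range (exact permutation p = 0.619). Of the 3 CpGs in its promoter letters, that at base −125 read 84.6, 92.9, 85.1, 100 and 100% in Control and 62.5, 73.5, 62.2 and 70.4% in Susceptible libraries. The groups did not overlap at this CpG, which had 11 to 56 calls per library. It was noticed among all CpGs of the promoters after their values were seen, so no test is given. The share of all CpGs whose groups do not overlap was not counted, so this separation has no background to be set against. Its values of 100% are from Control 5 and Control 8, the libraries of highest strand disagreement. The CpG at base 22 had means in the opposite order, 79.1 and 92.2%, with overlap. The CpG at base −203 was listed in 7 libraries, and the groups overlapped there. It read 91.3, 86.4 and 71.0% in Control 2, 4 and 5 and 71.4, 92.9, 73.3 and 42.3% in the Susceptible libraries. The body read 86.5% ± 0.678 and 85.9% ± 1.14 (exact permutation p = 0.365).

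**Figure D3:**
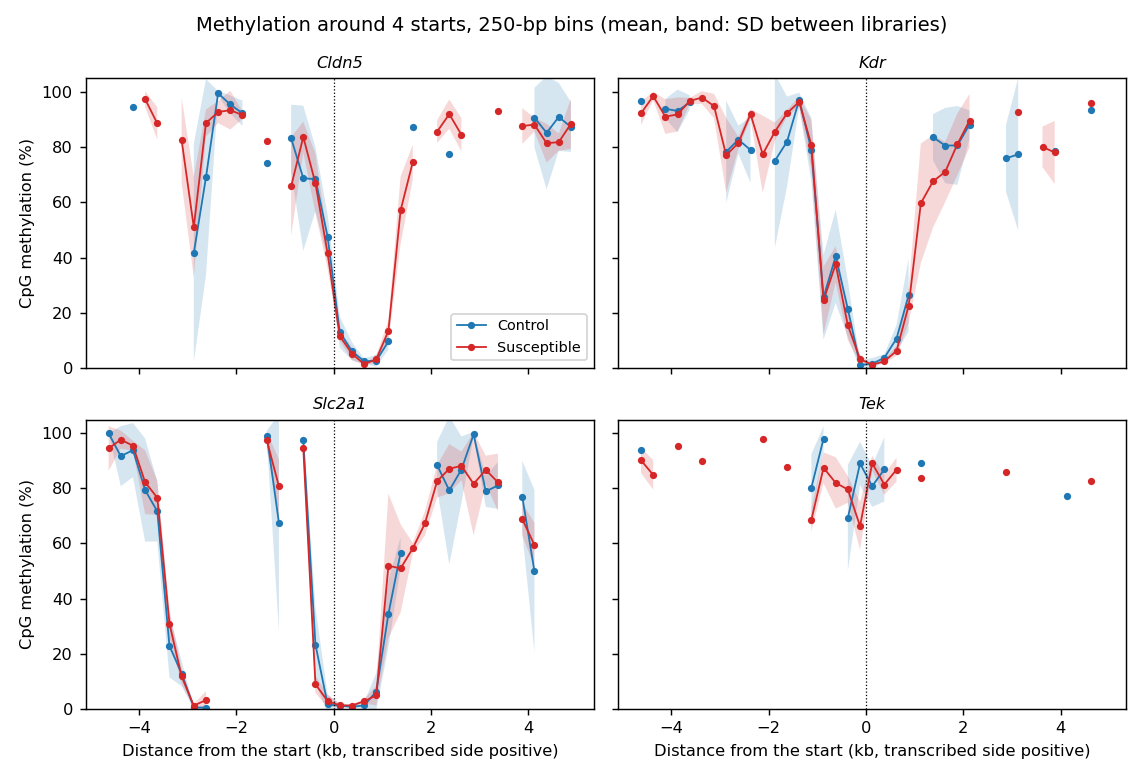
Methylation level (y axis, %) in 250-bp bins from 5 kb before to 5 kb after the start (x axis, kb) of Cldn5, Kdr, Slc2a1 and Tek. Lines are group means and bands are SD between libraries. A bin is not drawn for a group in which any library lists no CpG there. No other minimum was set, so bins of 1 CpG are drawn too. Cldn5 falls from 60.5% before the start to 3.50% after it in Control, Kdr and Slc2a1 have unmethylated stretches on both sides of the start, and Tek has none.

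Slc2a1 encodes GLUT1, the glucose transporter of the blood-brain barrier, and lies at chr4:119108745-119137330 on the plus strand. Its start window read 6.56, 3.93, 3.84, 6.25 and 6.44% in Control and 4.82, 5.15, 5.34 and 3.97% in Susceptible libraries, which lay inside the Control range (exact permutation p = 0.444). The sides of the start were tested apart for genes of known strand, a choice made after seeing the data. In the 1 kb before the start, 0 of 20281 genes were called (0%), 968 had an unadjusted p under 0.05 (4.77%), and the groups of 1.87% did not overlap. Slc2a1 was among the latter. It read 27.9, 24.1, 36.3, 43.8 and 30.5% in Control and 22.1, 22.8, 15.4 and 17.7% in Susceptible libraries, so all Control libraries were higher. The means were 32.5% ± 7.73 and 19.5% ± 3.53, a difference of −13.0 points (exact permutation p = 0.0159; unadjusted p = 0.00577 and adjusted p = 0.976 in the quasi-binomial model). With each of the 23 CpGs weighted equally the difference was −6.21 points (exact permutation p = 0.111), and over the 5 CpGs that all 9 libraries list the groups differed by −11.0 points (p = 0.0397 by the same exact test). This stretch has 283 to 759 calls per library, and it lies inside a long noncoding RNA on the other strand, Gm52706, which starts at 119108749, so it is also the first kb of that RNA. The difference was not in the 300 bases of the Slc2a1 promoter, which read 1.39% ± 3.10 in Control and 2.79% ± 2.27 in Susceptible libraries (exact permutation p = 0.492). Of its 18 CpGs, 0 were listed in all 9 libraries. Control 5, the highest library before the start, lists none of those from base −243 to −146. The 1 kb after the start read 1.27% ± 0.577 and 1.76% ± 0.326 (exact permutation p = 0.167), and the body 67.7% ± 2.58 and 70.1% ± 3.0 (exact permutation p = 0.254). That body difference of 2.41 points was 1.11 without Susceptible 6, 1.57 without Control 4 and 3.49 without Susceptible 7 (unadjusted p = 0.0489 in the quasi-binomial model), and 0.601 with each CpG weighted equally.

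Vwf encodes von Willebrand factor, a clotting protein that endothelial cells store and secrete, and spans chr6:125552948-125686679. Its CpG-richer end read 94.8, 94.8, 94.4, 82.6 and 97.3% in Control and 92.4, 92.9, 91.7 and 88.9% in Susceptible libraries. Control 5 was far below the other Control libraries, which were all above the Susceptible ones. With it the difference was −1.27 points (exact permutation p = 0.722), and without it −3.82 points (unadjusted p = 0.0110 in the quasi-binomial model). Without Control 8, the highest library, the difference was −0.128 points, and with a minimum of 20 calls per cytosine it was −0.0376. The other end read 94.7% ± 1.74 and 94.5% ± 1.43, and the body 87.0% ± 0.889 and 86.4% ± 0.921 (exact permutation p = 0.357). The lowest tile within 5 kb, from 125690001 at 14.5%, holds the start of the neighbouring gene Ano2.

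**Figure D4:**
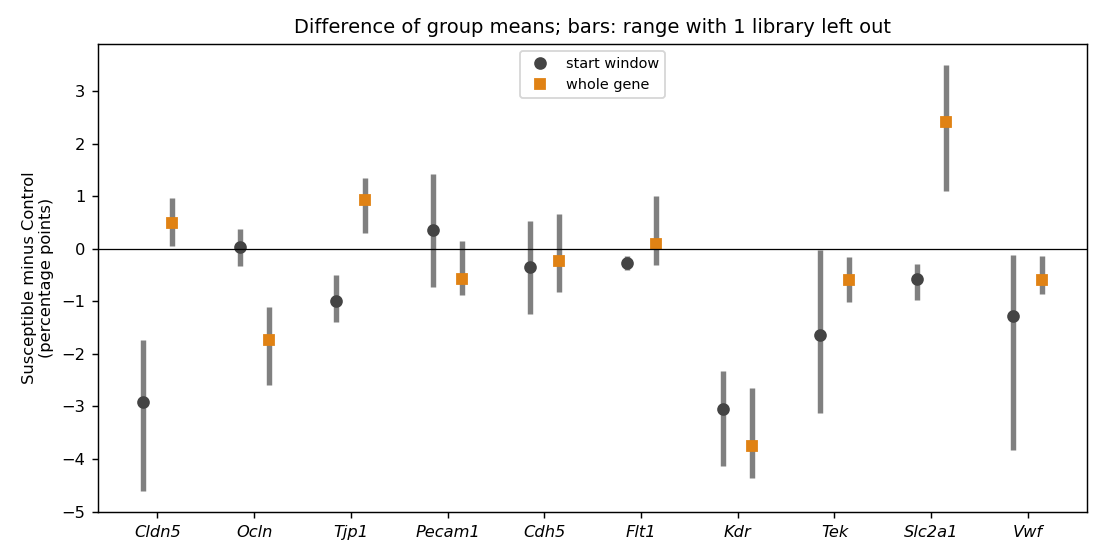
Difference of group means, Susceptible minus Control (y axis, percentage points), for the start window (circles) and the whole gene (squares) of each member. Vertical bars run from the lowest to the highest difference when 1 library is left out. The bars of Ocln, Pecam1 and Cdh5 starts and of Pecam1, Cdh5 and Flt1 bodies cross 0, and Kdr lies at −3.05 and −3.76 points.

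Fixed 1-kb tiles were used to look inside and within 5 kb of each gene. Of 998 such tiles, 724 passed the minimum of 3 CpGs and 20 calls per library. None had an adjusted p under 0.05, as was true of all 1041809 tiles of the genome tested (0%), of which 45605 (4.38%) had an unadjusted p under 0.05. Of the 724, 25 (3.45%) had an unadjusted p under 0.05, 15 higher and 10 lower in Susceptible (2.18 and 2.19% of all tiles), and limma on logit levels gave 15. The groups did not overlap in 9 tiles (1.24%, against 1.56% of all tiles), and 7 met both conditions against a background of 1.02%. The tile levels had the genome's distribution: 75.8% of the members' tiles averaged 80% or more, as did 75.9% of all tiles, and 2.21% averaged under 20%, against 2.96%.

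**Figure D5:**
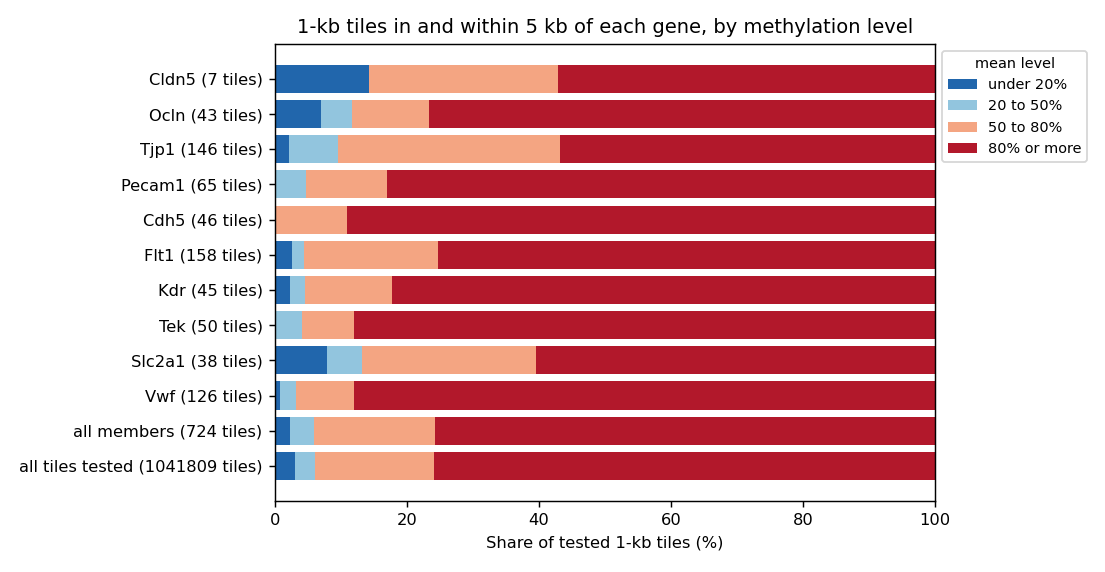
Share of tested 1-kb tiles (x axis, %) in 4 classes of mean methylation level for each member, for all members and for all tiles tested. Tiles under 20% make up 14.3% of the 7 tiles of Cldn5 and 0% of those of Pecam1, Cdh5 and Tek, and all members together match the genome within 1 percentage point in each class.

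The 7 tiles that met both conditions lie in 4 genes, and their values are descriptions of the tiles chosen for them. In Tjp1, the tile from 65458001 read 59.5, 66.5, 59.2, 8.94 and 45.7% in Control and 70.6, 68.8, 73.3 and 90.1% in Susceptible libraries. Its difference of 27.7 points dropped to 18 without Control 5, the library at 8.94%, and to 14 without both Control 5 and Control 8, the libraries of highest strand disagreement. Tiles from 65396001 and 65402001 of the same gene were lower in Susceptible, by −7.87 and −7.23 points from Control levels of 99.3 and 98.2%, on as few as 50 and 58 calls in a library. In Flt1, the tile from 147648001 was 11.5 points higher (74.4% ± 5.33 and 85.9% ± 3.70), and that from 147581001 was lower by −3.47 points from 99.5%. In Pecam1, the tile from 106672001 was 9.53 points higher (84.7% ± 8.75 and 94.3% ± 1.62), which became 5.92 points without Control 5 and 3.96 without Control 5 and Control 8. In Kdr, the tile from 75944001 differed by −2.55 points from 98.0%, and by −0.907 over the CpGs that all 9 libraries list. The adjusted p of each was 0.997 in the quasi-binomial model. For the other members the tile of smallest unadjusted p, with groups that overlap, differed by −9.12 points in Slc2a1, −8.75 in Vwf, −5.43 in Tek, 6.05 in Cdh5, 6.97 in Ocln and 2.28 in Cldn5. Leaving out 1 library moved that of Vwf to −4.87 (Susceptible 7), that of Cdh5 to 3.19 (Control 8) and that of Ocln to 4.28 (Control 5). Without Control 5 and Control 8, Vwf was at −5.67 and Ocln at 2.64, and with a minimum of 20 calls Cldn5 was at 0.163.

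Other genes of the same systems were counted in the same way. Over all genes tested, the share with an unadjusted p under 0.05 was 4.55% of starts and 4.59% of bodies, and the groups did not overlap at 1.71% of starts. Of 21 further tight junction and adherens genes, 0 starts were called and 1 had an unadjusted p under 0.05, Lsr, a protein of tricellular junctions (21.8% ± 2.67 in Control and 17.8% ± 2.56 in Susceptible). Of 17 genes of vascular growth factor signalling, 16 starts were tested and 0 called, and the 1 with an unadjusted p under 0.05 was Acvrl1, a receptor of the TGF-beta family (27.6% ± 3.86 and 19.1% ± 5.23). Of 30 genes of brain endothelium, 27 starts were tested and 0 called, and 3 had an unadjusted p under 0.05: the lipid transporter Mfsd2a (15.5% ± 5.18 and 10.7% ± 2.03), the transcription factor Sox17 (4.55% ± 0.755 and 6.32% ± 0.127, the 1 gene of the 3 lists whose groups did not overlap at the start) and the nitric oxide synthase Nos3 (15.4% ± 2.76 and 19.9% ± 3.22). RefSeq starts were held for 15, 13 and 20 genes of the 3 lists, and the CpG-richer gene end stood in for the others. Acvrl1, Sox17 and Nos3 were among these others, so their values are of a gene end that may not be the start. The median start difference was −1.04 points in the first list, 0.450 in the second and 0.110 in the third, against −0.0759 over all starts. The median body difference was −1.09, −2.06 and −0.264 points in the same order, against −0.336 over all genes. Over bodies each list had 0 called and 1 with an unadjusted p under 0.05, which were Ctnnb1, Nrp2 and Slco1c1.

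Markers of the cell types of such a punch were summed per library, over starts or bodies of 10 genes each. RefSeq starts were held for 6 to 8 genes of each set, and the CpG-richer gene end stood in for the others. Calls were summed over genes of unlike level, so a sum also moves with the share of calls from each gene. The median level of the 10 endothelial marker starts was 83.8%, far above their summed levels. Methylation does not measure their expression, so the tissue label was not checked beyond these levels. Endothelial marker starts, 7 of them members, read 29.0 to 32.7% in Control and 28.9 to 31.8% in Susceptible libraries, and bodies 82.3 to 85.1% and 80.7 to 83.8%. Pericyte and smooth muscle starts read 41.9 to 45.9% and 38.2 to 43.9%, and microglial starts 55 to 66.4% and 58.2 to 60.9%. Neuronal starts read 4.07 to 6.48% and 4.2 to 5.97%. Astrocyte starts read 24.9 to 32.2% in Control and 20.6 to 26.7% in Susceptible, and oligodendrocyte starts 17.4 to 19.8% and 15.2 to 18%, with overlap in both. The ranges were lower at both ends in Susceptible for the astrocyte, oligodendrocyte, pericyte and smooth muscle and endothelial starts, with means of 27.4 and 24.3%, 18.5 and 16.6%, 43.5 and 41.7%, and 31.3 and 30.5% in that order. Over bodies they were lower at both ends for every set but the neuronal one, with means of 83.4 and 82.9% for the endothelial set. Bodies of all genes tested also leaned lower in Susceptible libraries, with a median difference of −0.336 points and 42.1% of genes higher. Susceptible 7, the library of lowest level over all CpG calls, is in each of these Susceptible ranges. The part of cell composition in the differences at Kdr and Slc2a1 was not tested.

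Over the 9 libraries, the starts most like Cldn5 in their ups and downs, by Pearson correlation among 36757 gene starts whose level varied by at least 1 point (SD), were Grk2 (r = 0.960), Vsig10 (r = 0.955) and Gm38668 (r = 0.954). Their mean levels were 6.28, 9.09 and 92.4%. Both genes of a pair were read in the same 9 libraries, which differ in depth, and the highest of so many correlations over 9 points is a description. Among the members, the start of Cldn5 was closest to that of Flt1 (r = 0.778) and farthest from the CpG-richer end of Pecam1 (r = −0.311). Flt1 would not pass the minimum of 1 point. Its start levels ran only from 1.30 to 2.50% (SD 0.339 in Control and 0.384 in Susceptible), so that r ranks very small differences.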

How the data were processed

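Whole-genome bisulfite libraries of 9 nucleus accumbens samples were analysed (5 Control, 4 Susceptible). The submitters' processing notes name Bismark, Bowtie, Picard and the build mm10, without roles or versions. Per the file headers, the deposited tables give for each cytosine of a CpG a count of calls and the percent of them that stayed C or became T. The percent of C times the count was a whole number at 100% of entries, within the rounding of the percent to 2 decimals, so methylated calls were recovered as counts. The authors listed no cytosine under 10 calls, so the totals are not the full depth, and the SD between libraries includes counting error. Calls on both strands of a CpG were added, and 7140 to 9847 entries per library on unplaced scaffolds were left out. In Control 5 and Control 8, 4 and 8 entries were repeats and were used 1 time. No 2 libraries had identical values at more than 1.42% of CpGs.

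Genes and starts came from RefSeq tables of GRCm38.p6. In 3000 promoters, 97.6% of CpGs in the sequence were listed and 100% of listed positions were CpGs. The promoter table used here held a start for 26794 genes, 7 of them members. For the others the gene end with more CpGs stood in. Levels are methylated calls over all calls. Features that held 3 CpGs and 20 calls or more per library were fitted with a quasi-binomial logistic model, its dispersion moderated with limma's squeezeVar formulas and kept at 1 or more, by F test of the group, with Benjamini-Hochberg adjustment over all features. Single values were tested with exact permutation tests over 126 splits, two-sided. These exact p-values are not adjusted. Scripts used Python 3.11.15, numpy 2.4.6 and scipy 1.17.1 and were tested on simulated data first. The named tiles are, for each member, those of lowest level and of smallest p, and those with groups apart and an unadjusted p under 0.05. Promoter CpGs follow Cldn5 and the members of lowest and highest start level in each role, with Kdr added later. Of these promoters, those of Ocln and Slc2a1 are given by their CpG numbers. The members and lists were chosen with earlier results of these data known. Alternatives were a minimum of 20 calls, CpGs listed in all 9 libraries, limma on logit levels, other windows, equal weights per CpG, a replicate block, leaving out the 2 libraries of highest strand disagreement and leaving out each library. The split of the window into its sides, the equal weights over CpGs in all 9 libraries and the body without its start window were chosen after seeing the data.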

Additional observations from a re-analysis of the deposited data

Results flagged for a closer look

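In 88 groups of 4 or 5 libraries, the lowest or highest library was set against the others, and 7 groups held a library far from the rest, where chance gives about 1 in 20. The start window of Vwf read 82.6% in Control 5, against 94.4% in the nearest other Control library. Susceptible 7 was far below the other Susceptible libraries over the bodies of Ocln (63.9%, nearest 66.3%), Pecam1 (84.4%, nearest 87.1%), Cdh5 (86.8%, nearest 90.3%) and Flt1 (76.6%, nearest 80.1%), and in the Cldn5 tile from 18774001, outside the gene (86.1%, nearest 89.6%). These 5 are not independent, since the same library read lower over all CpGs (73.3% over CpGs listed in all 9 libraries, against 75.6 to 76.1% in the other Susceptible libraries). The Pecam1 tile from 106674001 read 16.5% in Control 4, nearest 36.8%. The part of the library-wide level in these values was not tested.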

How the results depend on the processing

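The count of gene starts and of gene bodies with an adjusted p under 0.05 was 0 under every alternative run, leaving out 1 library included. The count of tiles was 0 except without Control 4 (range 0 to 1) and with the replicate block (780), and the count in the 1 kb before the start was 0 except with the replicate block (26). The replicate block pairs only the numbers 2 and 3, leaves 1 residual degree of freedom among paired libraries, and the numbers are shared names: deviations of same-numbered libraries correlated by 0.0185 and −0.0250. With the block the body difference of Kdr was −1.87 points and the Slc2a1 difference before its start −3.55, and the named tiles of Tjp1 (65458001), Slc2a1, Vwf, Tek, Ocln and Pecam1 were at 6.73, −3.45, −2.62, −2.37, 1.36 and 3.84. The count of member starts with an unadjusted p under 0.05 (1) became 0 with a minimum of 20 calls, with CpGs listed in all 9 libraries, with limma and with the replicate block, and 2 without the 2 libraries of highest strand disagreement and with 2 kb on each side; with 1 library left out it was 0 to 2 (0 without Control 3 or Susceptible 7, 2 without Control 5). The count of member bodies (1) became 0 with the replicate block. It was also 0 over the body from 1 kb after the start onward, which also leaves out any gene model before the start. With 1 library left out it was 1 to 2 (2 without Control 8 or Susceptible 7). A count of 1 was not always Kdr. With 0.5 kb on each side, and without Control 4, the member start counted was Cldn5. Without both Control 5 and Control 8, the member body counted was Ocln, at −3.09 points. The count of member tiles (25) was 15 with limma, 44 with the replicate block and 17 to 36 with 1 library left out.

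Starts changed direction as follows. With a minimum of 20 calls Pecam1 was −1.27 points. With CpGs listed in all 9 libraries Ocln was −0.362, Tjp1 0.0707 and Cdh5 1.16, and with these weighted equally Ocln was −0.539 and Tjp1 0.195. With the replicate block Tjp1 was 0.183, Cdh5 1.09 and Tek 5.90. Without the 2 libraries of highest strand disagreement Pecam1 was −1.21, Cdh5 1.94, Tek 1.98 and Slc2a1 0.0401. With 0.5 kb on each side Flt1 was 0.136 and Tek 1.55, and with 2 kb Ocln was −0.597. Among bodies, with CpGs listed in all 9 libraries Pecam1 was 0.292 and Cdh5 0.151, and with these weighted equally Pecam1 was 0.0441, Cdh5 0.00765 and Tek 0.0695. With the replicate block Tjp1 was −0.600 and Cdh5 0.497, and without the 2 libraries Cdh5 was 0.528. Over the body from 1 kb after the start onward Flt1 was −0.229, and with each CpG weighted equally Ocln was 0.153 and Flt1 −0.292. The cause was not tested. Cldn5, Kdr and Vwf kept their direction at the start and over the body in all alternatives run. With 1 library left out the start differences of Ocln ran from −0.334 to 0.371, of Pecam1 from −0.733 to 1.42 and of Cdh5 from −1.24 to 0.529, and the body differences of Pecam1 from −0.882 to 0.153, of Cdh5 from −0.820 to 0.660 and of Flt1 from −0.305 to 1.01.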
